A study of Mus musculus with 8 samples.

Results

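*Panx3*, pannexin 3, and 7 genes that move calcium, phosphate and pyrophosphate were followed through the resting and proliferative zones of the mouse growth plate. The 8 genes were *Panx3*, *Slc8a3*, *Ank*, *Enpp1*, *Alpl*, *Slc20a1*, *Slc20a2* and *Phospho1*. They were found by symbol among the 11840 genes named in the authors' comparison of the zones, which held 7 of them; *Phospho1* was looked up by its Ensembl identifier in the count table of 43629 genes. They were selected on their roles and with their zone difference already known, so that difference is given below as a description. No p-value is printed for it, and a count of members past a threshold follows from the selection.

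The libraries came from 4 *Axin2CreERT2;R26RTdTomato* mice, 2 male (mice 1 and 2) and 2 female (mice 6 and 13), and every mouse gave 1 resting and 1 proliferative library. All animals received 3 tamoxifen injections from P23 and were sacrificed at P30. Resting chondrocytes were cut by laser microdissection from 8 µm frozen sections for their TdTomato label, which the *Axin2* promoter drives through tamoxifen-inducible Cre, and proliferative chondrocytes were unlabeled, flattened cells at least 50 µm from the secondary ossification center of the same mice. The labels name tibiae as the source, while the study's methods name both distal femur and proximal tibia. The zones therefore share genotype, treatment and age, and differ in position and in the label used to choose the cells. The study reports its prehypertrophic markers *Ihh*, *Mef2c* and *Pth1r* as higher in the proliferative samples. It names prehypertrophic chondrocytes taken along when the cells were cut as the likely source. The part of such cells in the values below was not tested.

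As background, pannexin 3 forms channels that pass ATP and calcium and is known from prehypertrophic chondrocytes and osteoblasts. Cartilage mineral forms where phosphate is plentiful and pyrophosphate, which blocks crystal growth, is scarce. ENPP1 makes pyrophosphate from ATP outside the cell, ANK exports it, and tissue-nonspecific alkaline phosphatase (*Alpl*) splits it into phosphate. PiT-1 (*Slc20a1*) and PiT-2 (*Slc20a2*) carry phosphate into cells with sodium, and PHOSPHO1 frees phosphate inside matrix vesicles. The sodium-calcium exchanger NCX3 (*Slc8a3*) moves calcium across the plasma membrane and is best known from brain and skeletal muscle.

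Depth was low, with 192882 to 462044 counts in the resting and 249284 to 631474 in the proliferative libraries, so 3 counts, the floor used here, correspond to between 4.75 and 15.6 CPM (counts scaled to a common library size). That range is before the further TMM scaling that all other CPM values carry. With it, 3 counts in the resting library of mouse 13 are 14.7 CPM. Chondrocyte markers summed to between 7519 and 19457 CPM in the resting and between 34597 and 59428 CPM in the proliferative libraries, and all 14 of those measured had counts. Osteoblast, osteoclast and blood markers were higher in the resting libraries. The osteoblast and osteocyte list summed to between 9599 and 37455 CPM there, against 620 to 4007 CPM in the proliferative zone. Osteoclast markers reached 1559 to 4593 CPM against 14.4 to 458 CPM, and blood and marrow markers 3018 to 4143 CPM against 1.60 to 612 CPM, with every gene of these 3 lists detected in at least 1 library. The proliferative library of mouse 1 stood apart from the other 3 of its zone in its osteoblast, osteoclast, blood and erythroid sums, the highest of that zone in CPM, and the resting library of mouse 6 had the highest chondrocyte and the lowest osteoblast sum of its zone in CPM. The osteoblast sum is mostly 2 collagen genes, *Col1a1* and *Col1a2* (5133 and 3416 CPM in that library), and *Ibsp* of the same list was highest there (967 CPM). Values without each of these libraries are given where they matter.

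**Figure D1:**
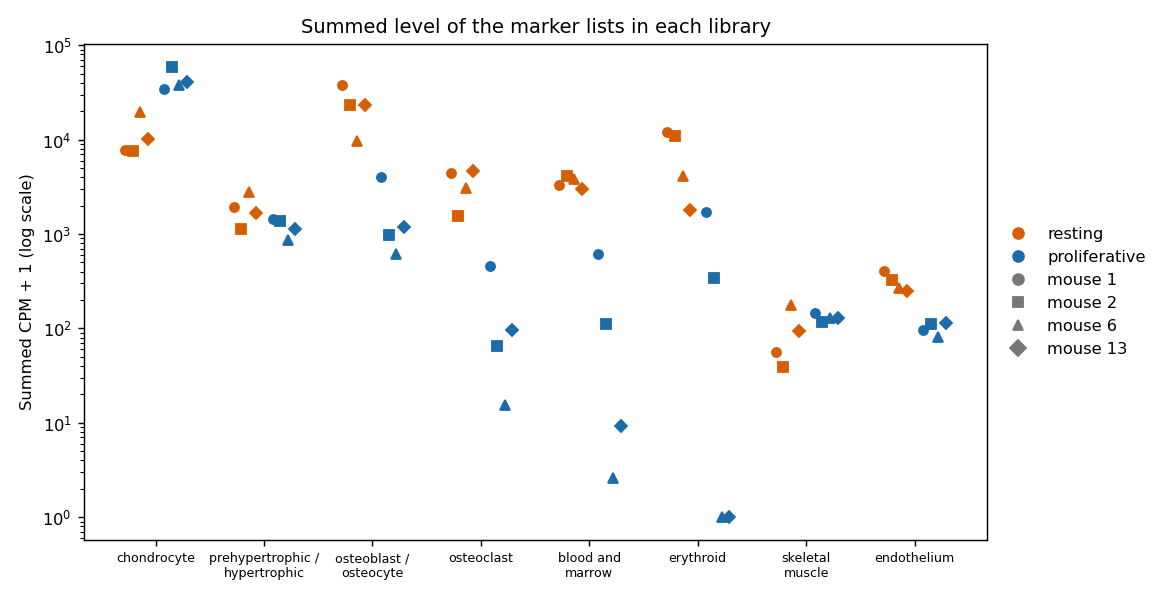
Summed CPM plus 1 (log scale) of each marker list in the 4 resting (orange) and 4 proliferative (blue) libraries, with a symbol shape for each mouse. The osteoblast, osteoclast and blood lists lie higher in every resting library than in every proliferative library, and the chondrocyte list lies lower.

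The members split into a pair that was high in the proliferative zone and a group that was high or present in the resting zone. *Panx3* and *Slc8a3* together made up 83.6% to 93.3% of the members' counts in the proliferative libraries but 7.25% to 18.2% in the resting libraries. *Ank* and *Slc20a1* ran the other way, with every resting library above every proliferative library. *Enpp1* and *Alpl* were detected in all 8 libraries with overlapping ranges, *Slc20a2* was barely detected and *Phospho1* had no count. In bulk libraries, fewer cells of a type and less RNA per cell cannot be told apart.

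**Figure D2:**
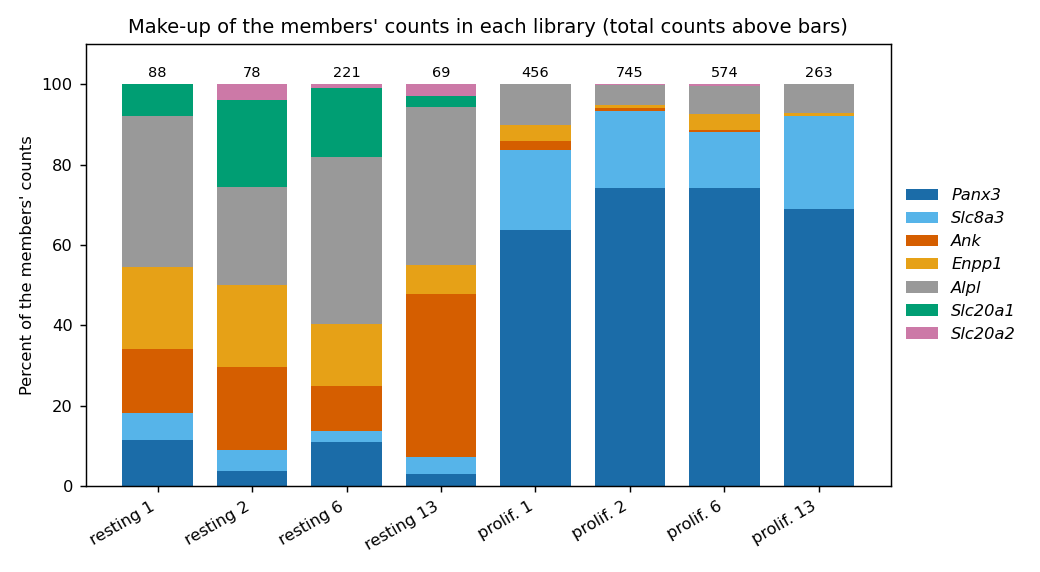
Share of each member in the members' summed counts (percent) in every library, with the sum above the bar. *Panx3* and *Slc8a3* fill at least 83.6% of each proliferative bar and at most 18.2% of each resting bar.

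A filter on low counts (at least 10 counts in enough libraries for a zone) left 3793 genes, among them 5 members. *Panx3*, *Slc8a3*, *Ank*, *Enpp1* and *Alpl* passed, while *Slc20a1* and *Slc20a2* were read from a second fit over the 17492 genes with a count. A call required an adjusted p below 0.01 and an absolute log2 fold change above 1. Of the 5 members, 2 were called higher in the proliferative zone, where 6.93% of all genes tested were, and 1 was called higher in the resting zone, where 11.0% were. The same 2 members had proliferative values that all lay above the resting ones, as did 15.1% of all genes tested, and the same 1 had resting values that all lay above the proliferative ones, as did 17.8%. In the second fit 2.68% of genes were called higher in the proliferative and 4.74% in the resting zone, and *Slc20a1* joined *Ank* in the latter. These counts follow from how the genes were selected and are given as a description.

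**Figure D3:**
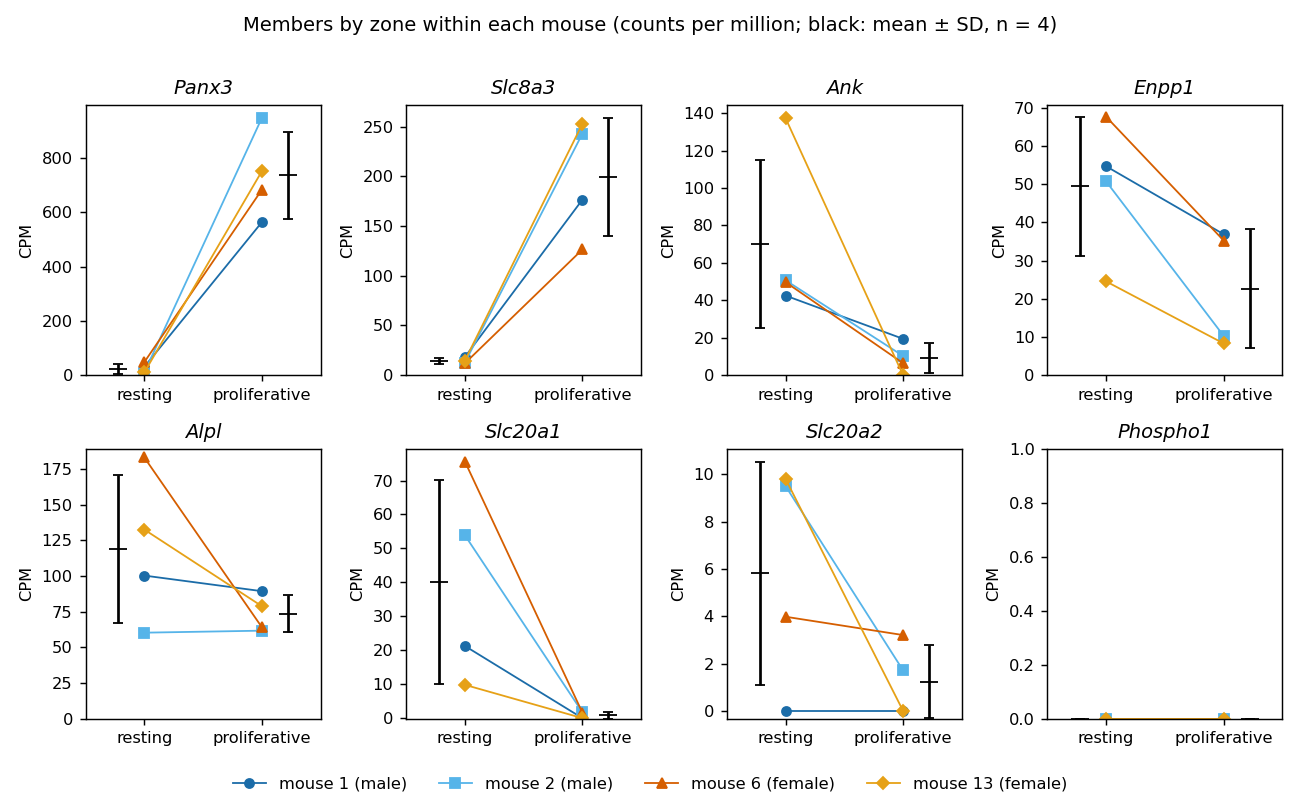
CPM of each member (linear axes that differ between panels) in the resting and proliferative library of each mouse, joined by a line, with the zone mean ± SD (n = 4) in black. *Panx3* and *Slc8a3* are higher in the proliferative library of all 4 mice, whereas *Ank*, *Enpp1* and *Slc20a1* are higher in the resting library of all 4.

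*Panx3* (ENSMUSG00000011118; chr9:37659902-37669235 on the minus strand in GRCm38) was the most abundant member of the proliferative zone. Its level in the proliferative libraries was 563 CPM in mouse 1, 947 in mouse 2, 682 in mouse 6 and 751 in mouse 13. The resting libraries of the same mice had 30.4, 9.51, 47.7 and 9.81 CPM. The zones did not overlap, and the lowest proliferative value stood far above the highest resting value. Mean levels were 736 ± 161 CPM in the proliferative and 24.4 ± 18.4 CPM in the resting zone (SD, 4 mice). The fitted log2 difference, resting minus proliferative, was -4.78 (SE 0.43).

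Within mice the proliferative level of *Panx3* was 14.3-fold the resting level in mouse 6, 18.5-fold in mouse 1, 76.5-fold in mouse 13 and 99.6-fold in mouse 2. The spread in this ratio came with the resting values, which ranged over 5.02-fold, more than with the proliferative values, which ranged over 1.68-fold. The resting libraries of mice 2 and 13 held 3 and 2 counts of *Panx3*, so their ratios rest on few counts. The resting library of mouse 6 held 61.5% of all resting counts of *Panx3*, and without it the log2 difference was -5.40. That library also had the highest sum of chondrocyte markers of its zone, 19457 CPM; the part of this in the *Panx3* value was not tested.

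The other known prehypertrophic and hypertrophic genes did not share one direction. The collagen X gene *Col10a1* had 392 counts in the proliferative and 14 in the resting libraries and was called (log2 difference -4.28, adjusted p = 0.00139). Indian hedgehog (*Ihh*) had 39 and 0 and was called in the second fit (log2 difference -6.11, adjusted p = 0.000259). The transcription factor genes *Mef2c* and *Sp7* had 328 and 73 and 71 and 21 counts, in the same order. Neither was called (log2 difference -1.57, adjusted p = 0.0113 for *Mef2c*, and -1.30, adjusted p = 0.0471 for *Sp7*). *Nt5dc1*, which lies against 18 exonic bases of *Col10a1* on the opposite strand, had 13458 counts over the 8 libraries. In the other direction, the collagenase gene *Mmp13* had a mean of 21.6 ± 29.8 CPM in the proliferative and 537 ± 174 CPM in the resting zone (SD, 4 mice). Without the proliferative library of mouse 1, at 64.1 CPM, the log2 difference of *Mmp13* moved from 4.66 to 6.69, and without that of mouse 6 to 4.07. The bone sialoprotein gene *Ibsp* likewise had 38.5 ± 69.0 CPM in the proliferative and 557 ± 325 CPM in the resting zone, and was not called (log2 difference 3.82, adjusted p = 0.0136). It was called when mice were blocked (adjusted p = 0.00279), in the likelihood ratio test (adjusted p = 0.00779) and without the proliferative library of mouse 1, where the log2 difference was 7.71. *Runx2* was near level (log2 difference -0.25, adjusted p = 0.515). The bone collagen gene *Col1a1* (log2 difference 4.25) and the osteoclast gene *Acp5* (log2 difference 4.81) were higher in the same resting libraries, and their cells' part in the *Mmp13* and *Ibsp* values was not tested. *Col10a1*, *Ihh*, *Mef2c*, *Sp7* and *Runx2* were picked for mention after their values were seen. The PTHrP receptor gene *Pth1r* averaged 445 ± 66.9 CPM in the proliferative and 137 ± 113 CPM in the resting zone and was not called (log2 difference -1.66, adjusted p = 0.0119). It was called when mice were blocked (adjusted p = 0.00593), in the likelihood ratio test (adjusted p = 0.00176), in DESeq2 (adjusted p = 0.00168) and without the resting library of mouse 6, where the log2 difference was -2.48. Of the 10 genes of this list that were tested, 2 were called higher in the resting and 1 in the proliferative zone (3 and 2 when mice were blocked, 3 and 3 in the likelihood ratio test), with a median log2 difference of -0.32 against 0.08 over all genes tested. *Ihh*, which failed the filter, was 1 further call, higher in the proliferative zone in the second fit.

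The pannexin paralogs were close to absent. *Panx1* had 3 counts, all in the resting library of mouse 2, and *Panx2* had 1 count in the proliferative library of mouse 1 and 2 in that of mouse 6. *Panx3* had 1489 counts over the 8 libraries, of which 1450 were proliferative, but in the resting library of mouse 2 it had 3, the same number as *Panx1*.

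*Slc8a3* (ENSMUSG00000079055; chr12:81197915-81333180, minus strand) followed *Panx3* in direction. Proliferative levels were 177, 243, 127 and 253 CPM in mice 1, 2, 6 and 13. Resting levels were 18.2, 12.7, 11.9 and 14.7 CPM in the same order. The resting values lay close together, and all were below the lowest proliferative value. Mean levels were 199.8 ± 59.5 CPM in the proliferative and 14.4 ± 2.82 CPM in the resting zone (SD, 4 mice), and the log2 difference was -3.78 (SE 0.38). Within mice the proliferative level was 9.69-fold to 19.2-fold the resting level, and with any 1 library left out the log2 difference stayed between -4.03 and -3.69.

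The other sodium-calcium exchangers of the plasma membrane, *Slc8a1* and *Slc8a2*, had no count in any library. A count of 0 allows up to 3 counts, or between 4.75 and 15.6 CPM in a library before TMM scaling. This bound holds only where reads of the gene's own strand were counted, which is not known here. The same limit applies to every gene below with no count. Because *Slc8a3* is known from muscle, muscle markers were examined beside it. *Ckm*, *Myh1*, *Myh4* and *Tnnc2* had no count in any library. *Ube2c* covers 592 of the 800 exonic bases of *Tnnc2* on the opposite strand and had 184 counts, so the 0 of *Tnnc2* is not read as absence. The calcium pump gene *Atp2a1* had 43.2 to 70.5 CPM in the proliferative and 28.5 to 95.5 CPM in the resting libraries, with 2 mice in each direction (log2 difference 0.23). The fast troponin genes *Tnnt3* and *Tnni2* had 16 against 2 and 128 against 44 counts in the proliferative against the resting libraries. *Tnni2* was not called (log2 difference -1.28, adjusted p = 0.233), but 40 of its resting counts were in the library of mouse 6, without which it was called (log2 difference -3.73, adjusted p = 0.000787). The muscle list as a whole, in which 5 of 9 genes had a count, summed to between 115 and 144 CPM in the proliferative and between 38.0 and 177 CPM in the resting libraries. The overlap of the zones came from the resting library of mouse 6 alone, and the other 3 had 54.7, 38.0 and 93.2 CPM, all below the proliferative libraries. The part of muscle RNA in the *Slc8a3* value was not tested.

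Promoter sequence from RefSeq (GRCm38.p6, 250 bases before to 50 after a start site) was at hand for 6 of the 8 members, and not for *Panx3* or *Slc20a2*. The 250 bases before the start are shown for *Slc8a3*, which was higher in the proliferative zone, and for *Ank* and *Slc20a1*, which were higher in the resting zone, written 5′ to 3′ on the strand of the gene. Capitals mark matches, on either strand, to GGGCGG for a GC box, CACGTG for an E-box, TGTGGT for a RUNX motif, TATAAA for the TATA box, TGACGTCA for the CRE or ACAATG for a SOX motif. The last capital of *Slc20a1* is the first base of a TATA box match that runs past the bases shown.
*Slc8a3* (chr12:81333181-81333430, minus strand): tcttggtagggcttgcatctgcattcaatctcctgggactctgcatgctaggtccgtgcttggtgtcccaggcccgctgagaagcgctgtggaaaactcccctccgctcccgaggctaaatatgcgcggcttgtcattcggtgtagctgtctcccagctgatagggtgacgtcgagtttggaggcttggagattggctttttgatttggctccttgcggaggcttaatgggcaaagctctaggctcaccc
*Ank* (chr15:27466427-27466676, plus strand): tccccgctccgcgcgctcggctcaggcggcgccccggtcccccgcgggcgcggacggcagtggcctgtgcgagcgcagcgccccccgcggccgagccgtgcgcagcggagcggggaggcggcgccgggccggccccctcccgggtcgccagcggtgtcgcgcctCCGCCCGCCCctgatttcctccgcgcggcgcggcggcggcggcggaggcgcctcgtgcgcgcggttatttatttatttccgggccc
*Slc20a1* (chr2:129198523-129198772, plus strand): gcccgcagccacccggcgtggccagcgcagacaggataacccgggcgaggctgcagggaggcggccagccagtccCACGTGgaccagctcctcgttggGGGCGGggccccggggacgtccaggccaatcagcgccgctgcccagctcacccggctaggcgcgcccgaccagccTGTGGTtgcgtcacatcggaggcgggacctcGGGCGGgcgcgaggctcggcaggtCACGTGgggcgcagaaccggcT
The *Slc8a3* window held none of the 6 motifs. The *Ank* window held 2 overlapping GC boxes on the minus strand, whose matches start 86 and 82 bases before the start site. The *Slc20a1* window shown held E-boxes at 175 and 22 bases, GC boxes at 152 and 46 bases and a RUNX motif at 77 bases before the start, beside the TATA box letters at 1 base. A second RefSeq window of *Slc20a1*, farther along the gene (chr2:129206846-129207145), held 1 GC box at 140 bases and none of the other motifs, with a GC content of 52.0%. Among all 32851 promoter windows of the same length, a GC box was found in 35.7%, a RUNX motif in 16.8%, a TATA box in 13.6%, a SOX motif in 12.6%, an E-box in 7.15% and a CRE in 1.79%. GC content of the 300 base windows was 58.3% for *Slc8a3*, 78.0% for *Ank* and 73.0% for the *Slc20a1* window shown.

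*Ank* (ENSMUSG00000022265; chr15:27466677-27594909, plus strand), the pyrophosphate exporter, was higher in the resting zone. Resting levels were 42.5, 50.7, 49.7 and 137 CPM in mice 1, 2, 6 and 13. Proliferative levels were 19.4, 10.3, 6.41 and 0 CPM. The zones did not overlap, and mouse 13 had both the highest resting and the lowest proliferative value. Mean levels were 70.1 ± 45.0 CPM in the resting and 9.02 ± 8.12 CPM in the proliferative zone (SD, 4 mice), on 83 and 20 counts, with a log2 difference of 2.75 (SE 0.64). Without the resting library of mouse 13 the difference was 2.22, and without the proliferative library of mouse 1, which had the highest bone and blood marker sums of its zone, it was 3.25. It no longer passed the thresholds for a call without the resting library of mouse 13, without the proliferative library of mouse 2, 6 or 13, or when mice were blocked (log2 difference 2.66). In the blocked fit over all genes with a count, added after seeing the data, *Ank* did pass them.

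*Enpp1* (ENSMUSG00000037370; chr10:24637914-24712159, minus strand), which makes pyrophosphate, was higher in the resting library of each mouse, yet the zones overlapped. Resting levels were 54.7, 50.7, 67.6 and 24.5 CPM and proliferative levels 36.9, 10.3, 35.2 and 8.29 CPM in mice 1, 2, 6 and 13. Mouse 13 was the lowest in both zones. Means were 49.4 ± 18.1 and 22.7 ± 15.5 CPM (SD, 4 mice), and the log2 difference was 1.09 (SE 0.52). The related enzyme gene *Enpp3* had 1 count in all, in the resting library of mouse 1.

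*Alpl* (ENSMUSG00000028766; chr4:137741733-137796384, minus strand), whose enzyme removes pyrophosphate, was the member with the smallest zone difference among those that passed the filter. Its resting levels were 100.2, 60.2, 183 and 132.5 CPM, against 89.3, 61.6, 64.1 and 78.8 CPM in the proliferative zone, in mice 1, 2, 6 and 13. In mouse 2 the zones were level, and the largest gap was in mouse 6. Means were 119.0 ± 51.9 and 73.5 ± 13.0 CPM (SD, 4 mice) and the log2 difference was 0.71 (SE 0.36). The resting library of mouse 6 held 53.8% of the resting counts, and without it the difference was 0.37. *Alpl* is also made by osteoblasts, and that library had the lowest sum of osteoblast and osteocyte markers of its zone, 9599 CPM, but the highest levels of the bone matrix genes *Ibsp* (967 CPM) and *Spp1* (668 CPM). The part of osteoblasts in the *Alpl* value was not tested.

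*Slc20a1* (ENSMUSG00000027397; chr2:129198764-129211616, plus strand), the gene of PiT-1, had counts of 7, 17, 38 and 2 in the resting and 0, 1, 1 and 0 in the proliferative libraries of mice 1, 2, 6 and 13. In CPM the resting values were 21.3, 53.9, 75.6 and 9.81, and the proliferative values did not exceed 1.71. Every resting library lay above every proliferative library, as it did for 8.38% of all genes with a count. The summed counts, 64 against 2, gave a ratio of 46.5 per unit of scaled depth, with an exact 95% binomial interval of 12.4 to 392 that covers counting error only. The fitted log2 difference was 4.82 (SE 0.91), a value that depends on the prior count of the fit, and it was 4.21 without the resting library of mouse 6, which held 59.4% of the resting counts. On the opposite strand *9830144P21Rik* overlaps 452 exonic bases of *Slc20a1* and had 107 counts, and *Gm4430* overlaps 280 bases and had 12. *9830144P21Rik* itself had 28, 63, 6 and 0 counts in the resting and 5, 0, 5 and 0 in the proliferative libraries of mice 1, 2, 6 and 13. Its log2 difference of 3.60 moved to 4.19 without the proliferative library of mouse 1 and to 2.44 without the resting library of mouse 2, where its call was lost (adjusted p = 0.0302).

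*Slc20a2* (ENSMUSG00000037656; chr8:22476788-22569612, plus strand), the gene of PiT-2, had 0, 3, 2 and 2 counts in the resting and 0, 1, 2 and 0 in the proliferative libraries. The ratio of 7 to 3 counts was 3.39 per unit of scaled depth, with an exact 95% interval of 0.775 to 20.3 that covers counting error only. The fitted log2 difference was 1.57, and 2.35 without the proliferative library of mouse 6.

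*Phospho1* (ENSMUSG00000050860; chr11:95824499-95832140, plus strand) had 0 counts in all 8 libraries, which allows up to 3 counts in each. Its exons lie almost wholly against another gene: *Abi3*, on the opposite strand, covers 1708 of its 2029 exonic bases. *Abi3* was counted 180, 127, 126 and 114 times in the proliferative and 23, 36, 18 and 3 times in the resting libraries of mice 1, 2, 6 and 13, and was higher in the proliferative zone (log2 difference -2.36, SE 0.48, adjusted p = 0.00277). Whether the counting used strand is not given in the sources used here, and reads from genes that overlap on opposite strands may be counted to either or neither. In the female libraries the same count table gave *Tsix* 18683 counts and *Xist*, the gene it lies opposite, 1367. The 0 counts of *Phospho1* are therefore not read as absence of its RNA.

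Per kilobase of annotated exon, the scale on which levels of different genes can be set side by side, *Panx3* led the proliferative zone at 214 ± 46.8 CPM per kilobase (SD, 4 mice). *Slc8a3* followed at 37.5 ± 11.2 and *Alpl* at 18.2 ± 3.23, and the ranges of these 3 did not overlap. *Ank* at 2.50 ± 2.25 and *Enpp1* at 2.21 ± 1.51 CPM per kilobase overlapped each other. In the resting zone *Alpl* was highest, at 29.5 ± 12.9, followed by *Ank* at 19.4 ± 12.5, *Slc20a1* at 7.19 ± 5.40, *Panx3* at 7.09 ± 5.36, *Enpp1* at 4.82 ± 1.76 and *Slc8a3* at 2.70 ± 0.53 CPM per kilobase, and each of these overlapped the next in the order. Exon lengths are sums over all annotated transcripts, and 2 rounds of amplification preceded sequencing, so coverage along each transcript is not known. The strand that was counted is not known either, so the order may not be that of the genes' own RNA.

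All of the members higher in the resting zone were so in libraries that also held more osteoblast, osteoclast and blood markers, with the sums given above. Among the resting libraries, the osteoblast list was highest in mouse 1 (37455 CPM), where *Ank* was lowest. The osteoclast list was highest in mouse 13 (4593 CPM), where *Ank* was highest and *Slc20a1* lowest, and it was lowest in mouse 2 (1559 CPM). The part of these cells in the values of *Ank*, *Enpp1*, *Alpl* and *Slc20a1* was not tested. The blood and marrow list, which includes the granule protein gene *Ngp* at 0 counts in both, summed to 1.60 and 8.29 CPM in the proliferative libraries of mice 6 and 13, where *Panx3* had 682 and 751 CPM and *Slc8a3* 127 and 253 CPM. The part of blood cells in the values of *Panx3* and *Slc8a3* was not tested.

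Sex was not used to select the members, so it was tested, with the counts of both zones of a mouse summed. Female minus male log2 differences of the 6 members that passed the filter were -0.29 (SE 0.30) for *Panx3*, -0.40 (0.38) for *Slc8a3*, 0.65 (0.52) for *Ank*, 0.01 (0.55) for *Enpp1*, 0.50 (0.34) for *Alpl* and 0.57 (0.82) for *Slc20a1*. None of the 6 was called, 0 had an unadjusted p below 0.05, and the lowest adjusted p was 0.943 in edgeR's quasi-likelihood test with 2 mice a sex. Across 6833 genes, 0.0293% were called, namely *Tsix* and *Xist*, and 429 had an unadjusted p below 0.05. A member difference between the sexes was thus not detected. With 1 mouse left out no member was called, but *Ank* had an unadjusted p of 0.0223 without mouse 6 (log2 difference 1.25, adjusted p = 0.483 in edgeR) and *Slc8a3* one of 0.0286 without mouse 13 (log2 difference -0.92, adjusted p = 0.388 in edgeR).

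The zone difference itself was also compared between the sexes. The interaction, the female minus the male zone difference on the log2 scale, was 0.64 (SE 0.92) for *Panx3*, 0.04 (0.98) for *Slc8a3*, 2.39 (1.36) for *Ank*, -0.22 (1.09) for *Enpp1* and 1.09 (0.72) for *Alpl*. No member was called, 0 of the 5 had an unadjusted p below 0.05, and the lowest adjusted p was 0.994. Over all 3793 genes 0.0% were called and 190 had an unadjusted p below 0.05. On simulated data of this design the interaction test called no changed gene at any fold size tried, so the lack of calls does not bear on whether the zone difference is alike in the sexes. *Ank* had the largest of these differences and its 2 highest within-mouse values were those of the female mice, with mouse 13 at a proliferative count of 0. Without the block its interaction was 2.64, with an unadjusted p of 0.0497 and an adjusted p of 0.746 in edgeR.

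Genes of the same pathways outside the members were then read from the zone fit. The 6 lists held 176 genes, of which 150 had a count and 55 passed the filter. Of the 55, 7 were called higher in the resting and 5 in the proliferative zone, shares near those of all genes tested (11.0% and 6.93%). These counts moved with 1 library left out: they were 3 and 4 without the proliferative library of mouse 2, 5 and 2 without that of mouse 6, and 9 and 4 without that of mouse 1. They were 4 and 4, 4 and 5, and 6 and 8 without the resting library of mouse 1, 13 and 6. The lists were written with earlier results of these data known and are not independent evidence of a direction.

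**Figure D4:**
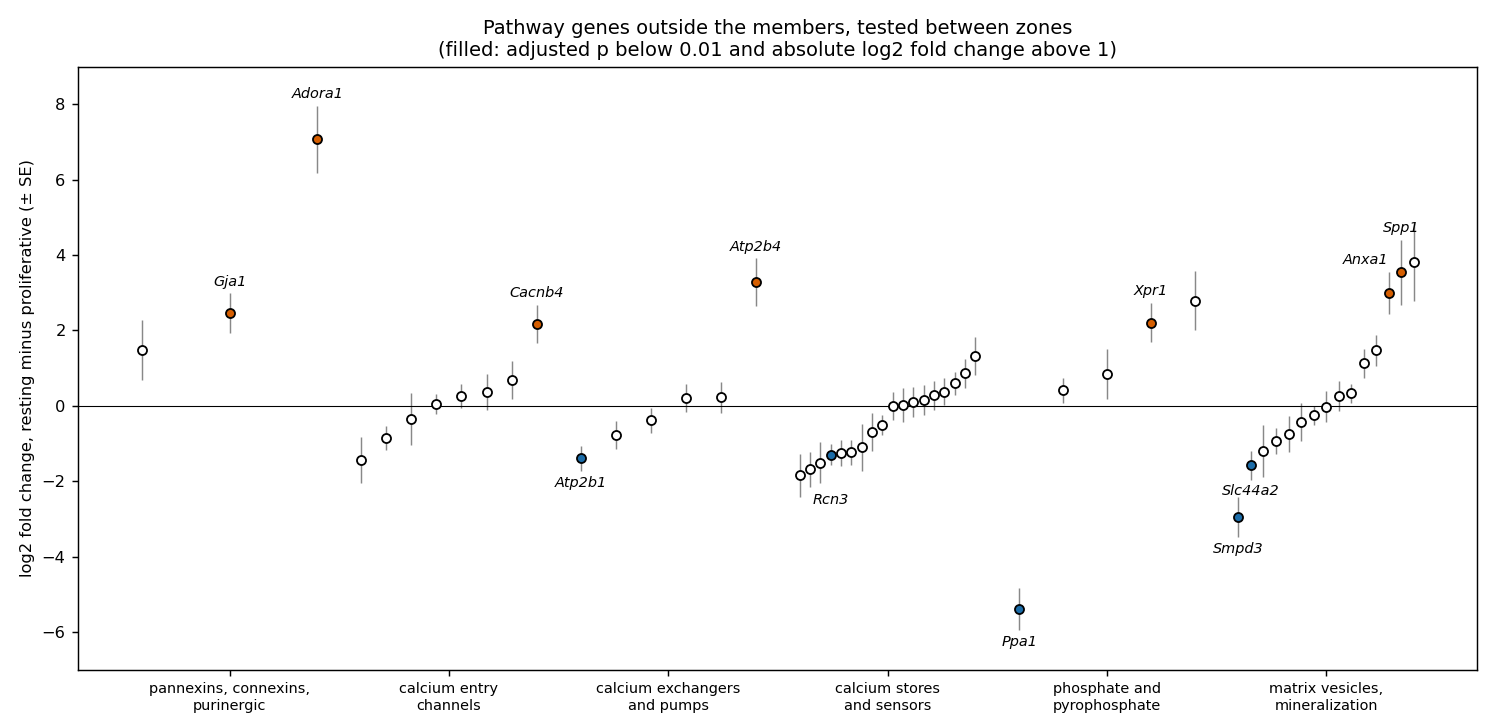
Log2 fold change, resting minus proliferative (± SE), of the 55 pathway genes tested, in order of value within each of the 6 lists, with called genes filled (orange higher in resting, blue higher in proliferative) and named. Called genes lie on both sides of 0 in the pump, phosphate and mineralization lists.

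In the list of pannexins, connexins and purinergic signaling, 3 of 35 genes passed the filter and 2 were called, both higher in the resting zone, where 11.0% of all genes tested were. Their median log2 difference was 2.46 against 0.08 over all genes. *Adora1* passed the filter through the resting zone alone, so the median of these 3 genes does not bear on a direction of the list. The adenosine A1 receptor gene *Adora1* had 18, 18, 110 and 22 counts in the resting and 0, 0, 0 and 1 in the proliferative libraries (adjusted p = 0.000209). The summed counts gave a ratio of 244 with an exact 95% interval of 43.3 to 9705, and the fitted log2 difference moved from 7.07 to 6.41 without the resting library of mouse 6 and to 8.54 without the proliferative library of mouse 13. *Mybph*, which lies against 1162 exonic bases of *Adora1* on the opposite strand, had 6 counts in all. *Gja1*, the gene of connexin 43, the main gap junction protein of bone cells, had 654 ± 415 CPM in the resting and 118 ± 69.6 CPM in the proliferative zone (log2 difference 2.46, SE 0.53, adjusted p = 0.00375), and the zones overlapped. The call of *Gja1* held without the resting library of mouse 2 or 6 or the proliferative library of mouse 1 and was lost without any 1 of the other 5 (adjusted p up to 0.0188). Of the 25 genes with a count that failed the filter, 1 was called in the second fit, the ADP receptor gene *P2ry13*. It had 21 counts, 19 of them in the resting library of mouse 6, and 0 in the proliferative zone, and it was not called without that library or without any 1 of the proliferative libraries (adjusted p up to 0.319), nor when mice were blocked (adjusted p = 0.0919).

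Calcium entry was measured through 37 genes, of which 8 passed the filter. One of the 8, *Cacnb4*, which encodes an auxiliary subunit of voltage-gated calcium channels, was called, with 144 ± 90.7 CPM in the resting and 30.6 ± 16.2 CPM in the proliferative zone (log2 difference 2.17, SE 0.51, adjusted p = 0.00637). Blocking by mouse raised its adjusted p to 0.0106, and the call held only without the resting library of mouse 1 or of mouse 2 (up to 0.0243 otherwise). *A430018G15Rik*, opposite 1433 of its exonic bases, had 3 counts. The list had a median log2 difference of 0.16. The calcium-sensing receptor gene *Casr* had no count.

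Among the calcium exchangers and pumps, 6 of 17 genes passed the filter, with a median log2 difference of -0.09, and the called pair, both plasma membrane calcium pumps, went in opposite directions. *Atp2b4* had 85.1, 53.9, 29.8 and 34.4 CPM in the resting and 7.77, 1.71, 8.01 and 0 CPM in the proliferative libraries of mice 1, 2, 6 and 13 (log2 difference 3.28, SE 0.63, adjusted p = 0.0019). The call was lost without the proliferative library of mouse 2 (adjusted p = 0.0114). *Atp2b1* had 33.4, 69.7, 91.5 and 73.6 CPM in the resting and 146, 233, 175 and 153 CPM in the proliferative libraries (log2 difference -1.39, SE 0.34, adjusted p = 0.00777). Neither gene overlapped between zones. The call of *Atp2b1* held without the resting library of mouse 6 or the proliferative library of mouse 1 and was lost without any 1 of the other 6 (up to 0.0264) and without scaling factors. *Atp2a3*, the gene of the SERCA3 pump, failed the filter and was called in the second fit on 35 resting counts and 1 proliferative count, a ratio of 50.9 with an exact 95% interval of 8.55 to 2067. The proliferative count was in mouse 1, and the fitted log2 difference moved from 4.75 to 6.24 without that library.

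Calcium stores, release channels and intracellular sensors formed the longest tested list, 18 of 40 genes, with a median log2 difference of -0.26. It had 1 call, higher in the proliferative zone, and 5 in the likelihood ratio test. The call was *Rcn3*, which encodes the calcium-binding protein reticulocalbin 3 of the endoplasmic reticulum, at 63.4 to 91.1 CPM in the resting and 163 to 247 CPM in the proliferative libraries (log2 difference -1.30, SE 0.27, adjusted p = 0.00339), and without the proliferative library of mouse 6 its adjusted p was 0.0107. The calreticulin gene *Calr*, mentioned for its nearness to the threshold after its values were seen, had 161 ± 79.8 and 387 ± 73.3 CPM (log2 difference -1.23, adjusted p = 0.0119). *Calr* was called in the likelihood ratio test (adjusted p = 0.00278), in DESeq2 (adjusted p = 0.00256) and without the resting library of mouse 6 (adjusted p = 0.000879), and not when mice were blocked (adjusted p = 0.0106).

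Phosphate and pyrophosphate genes beside the members gave 5 tested of 24, a median log2 difference of 0.83, and 1 call in each direction (2 resting and 1 proliferative in the likelihood ratio test). *Ppa1*, the gene of the cytosolic pyrophosphatase that turns pyrophosphate into phosphate inside the cell, had 489, 793, 432 and 780 CPM in the proliferative and 18.2, 0, 27.9 and 4.91 CPM in the resting libraries of mice 1, 2, 6 and 13. No resting library came near a proliferative one (log2 difference -5.40, SE 0.56, adjusted p = 8.74e-05), and without the resting library of mouse 6 the log2 difference was -6.22. *Xpr1*, the gene of a phosphate exporter, had 153 ± 85.9 CPM in the resting and 31.8 ± 16.4 CPM in the proliferative zone (log2 difference 2.21, SE 0.53, adjusted p = 0.00721), with overlapping zones. Blocking by mouse ended its call (adjusted p = 0.0252), and the call held only without the resting library of mouse 2. In the second fit *Slc37a2*, a sugar phosphate and phosphate antiporter gene, was called higher in the resting zone on 102 against 11 counts (log2 difference 3.50, or 4.22 without the proliferative library of mouse 1), and *Stc2*, the gene of the secreted regulator stanniocalcin 2, was called higher in the proliferative zone on 60 against 0 counts, at least 13.8-fold when the resting zone is set at 3 counts in sum. The sodium-phosphate cotransporter genes *Slc34a1*, *Slc34a2* and *Slc34a3*, *Fgf23* and *Kl* had no count.

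The matrix vesicle and mineralization list had 15 of 23 genes tested, a median log2 difference of -0.02, and 2 calls in each direction (4 resting and 2 proliferative in the likelihood ratio test, 3 and 1 when mice were blocked). *Spp1* (osteopontin, a matrix protein that binds mineral) had 246, 285, 668 and 167 CPM in the resting and 97.1, 11.98, 0 and 4.15 CPM in the proliferative libraries (log2 difference 3.54, SE 0.87, adjusted p = 0.00847). It was not called by DESeq2, held its call among the leave-outs only without the proliferative library of mouse 1, where the log2 difference was 5.80, and stood at 2.95 without the resting library of mouse 6. *Anxa1*, an annexin gene, had 158 ± 28.8 CPM in the resting and 18.2 ± 18.9 CPM in the proliferative zone (log2 difference 3.00, SE 0.56, adjusted p = 0.00159), reached 3.74 without the proliferative library of mouse 1 and lost its call without that of mouse 2 (adjusted p = 0.0112). *Smpd3*, whose enzyme neutral sphingomyelinase 2 is needed for normal cartilage mineral, had 409 ± 103 CPM in the proliferative and 49.2 ± 52.6 CPM in the resting zone (log2 difference -2.94, SE 0.54, adjusted p = 0.00141), or -4.18 without the resting library of mouse 6. *Prmt7* lies against 247 of its exonic bases on the opposite strand with 46567 counts, and its part in the *Smpd3* value was not tested. *Slc44a2*, a choline transporter-like gene, had 65.2 ± 13.0 and 21.5 ± 2.19 CPM in the proliferative and resting zones (log2 difference -1.58, SE 0.38, adjusted p = 0.00735). *Slc44a2* lost its call when mice were blocked (adjusted p = 0.0225) and without scaling factors. Of the 8 libraries, only leaving out the proliferative library of mouse 2 kept the call, which was lost without any 1 of the other 7 (adjusted p up to 0.0181). The osteocalcin genes *Bglap* and *Bglap2*, near-identical copies between which reads can be split, were called higher in the resting zone in the second fit on 70 against 1 and 58 against 3 counts. Their fitted log2 differences of 5.92 and 4.45 moved to 7.33 and 5.23 without the proliferative library of mouse 2.

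The genes whose library profile lay closest to that of *Panx3* were found by the root mean square difference between gene-centred log2 CPM over the 8 libraries. The median over 3792 genes was 2.56, and the closest were *Prmt7* (0.277), *Ppa1* (0.454), *Abcc10* (0.509), *Cdkn1c* (0.553) and *Shmt2* (0.624). *Slc8a3* stood at rank 24 (0.976) and varied less among the resting libraries. The list includes *Ppa1*, the pyrophosphatase gene of the phosphate list, and *Cdkn1c*, which encodes a cyclin-dependent kinase inhibitor. The 5 genes share the zone difference of *Panx3*, by which it was selected. The resting library of mouse 6 was highest of its zone for *Panx3*, *Prmt7*, *Ppa1*, *Abcc10* and *Shmt2*.

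*Prmt7*, an arginine methyltransferase gene, had 20209 to 29169 CPM in the proliferative and 633 to 2117 CPM in the resting libraries. It overlaps 247 exonic bases of *Smpd3* on the opposite strand, so its counts and those of *Smpd3* cannot be taken as separate measurements. *Abcc10* likewise overlaps *Dlk2* by 51 bases and *Shmt2* overlaps *Ndufa4l2* by 32.

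**Figure D5:**
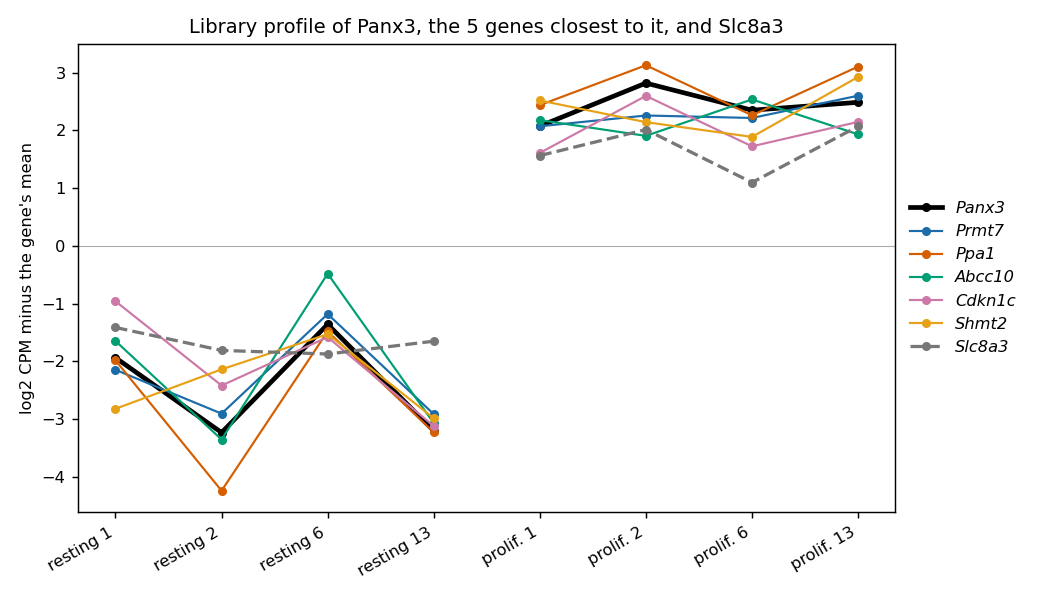
Log2 CPM minus each gene's mean over the 8 libraries for *Panx3* (black), the 5 genes closest to it and *Slc8a3* (dashed), by library. All 7 genes are below 0 in the 4 resting and above 0 in the 4 proliferative libraries, and *Slc8a3* is flatter among the resting libraries than *Panx3*.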

How the data were processed

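RNA-seq was analysed in 8 libraries, 1 per zone and mouse. The authors extracted RNA from dissected cells, amplified it by 2 rounds of in vitro transcription, aligned reads to GRCm38 with HISAT2 2.1.0 and counted them per Ensembl gene with HTSeq 0.11.2, and they deposited raw counts, the unit used here. Whether the counting used strand is not given, so depth and all levels are known only as the counts assigned to each gene. Their table of zone comparisons (fold changes, p-values and scaled values) was used only for gene symbols. No column belonged to other samples (0).

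Members and gene lists were chosen with earlier results of these data known. Groups came from the labels. edgeR 4.0.16 (TMM factors 0.934 to 1.09, quasi-likelihood test, Benjamini-Hochberg adjustment over all genes tested) compared the zones without a block (whether the study's edgeR model held the mouse is not given in the sources used here), after a filter (minimum count 10, total 15) that kept 3793 genes. CPM values are scaled by TMM, and counting intervals are exact. Libraries of both zones came from the same mice by the labels, and deviations of same-mouse libraries correlated at r = 0.195, 0.0104, 0.144 and 0.0635. The fit with the mouse as a block was an alternative, as were a likelihood ratio test, DESeq2 1.42.0, other scalings and filters, and each library left out. The second fit with a block over all genes with a count was added after seeing the data. The scripts were tested on simulated data.

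Named genes were all members, up to 3 called genes per pathway list and direction with the lowest adjusted p, paralogs of members, the 3 marker genes per list with the highest mean CPM, and the 5 genes most like *Panx3*; exceptions are stated. Gene positions came from the GENCODE annotation of GRCm38. Libraries of a zone came from separate mice, so the spread covers mice, dissection and amplification together. PCR and amplified copies are not independent molecules, so intervals and floors cover counting error only.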

Additional observations from a re-analysis of the deposited data

Results flagged for a closer look

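A library was set apart where its gap to the nearest other library of its zone exceeded the share of the zone's range that Dixon's 95% limit allows for 4 libraries. This happened 19 times in 114 sets of named gene and zone. In 7 of the 19 the other libraries were all at 0, a case that passes the limit by construction, so the chance rate of about 1 in 20 does not apply to the total. Of the remaining 12, 7 were the proliferative library of mouse 1. Among the members, *Ank* was set apart in the resting library of mouse 13, at 137 CPM against 42.5 to 50.7 CPM in the others.

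In the proliferative library of mouse 1, *Spp1* was high at 97.1 CPM, *Ibsp* at 142 CPM, *Ctsk* at 256 CPM, *S100a9* at 295 CPM, *Hba-a2* at 447 CPM and *Hbb-bt* at 231 CPM, while *Smpd3* was low at 256 CPM. In the resting library of mouse 6, *Smpd3* was high at 127 CPM, *Col11a1* at 1120 CPM and *Tnni2* at 79.6 CPM. *Col11a1* was also high at 5787 CPM in the proliferative library of mouse 2.

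The remaining ones rested on 1 to 3 counts beside libraries at 0: *Adora1* at 4.15 CPM and *Emcn* at 12.4 CPM in the proliferative library of mouse 13, *Cdh5* at 3.88 CPM and *Atp2a3* at 1.94 CPM in that of mouse 1, *Bglap* at 1.71 CPM in that of mouse 2, *Panx1* at 9.51 CPM in the resting library of mouse 2, and *Enpp3* at 3.04 CPM in that of mouse 1.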

How the results depend on the processing

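The members' log2 differences kept their direction under all 89 alternatives run, and 88 moved by less than 1 SD of the within-mouse differences. The exception was *Slc20a1* without the resting library of mouse 6 (4.21). Among members with a count that SD ranged from 0.48 for *Slc8a3* to 2.64 for *Ank*, so it is a weak limit. *Ank* lost its call in some of the settings that it counts as unmoved. *Panx3* ranged from -4.99 to -4.64 over other tests, scalings, filters and the block, and *Ank* from 2.50 to 2.88. Over all genes, the counts called higher in the resting and proliferative zones were 419 and 263, and 829 and 468 with all genes with a count, 125 and 137 with at least 10 counts in every library, 385 and 230 with the mouse as a replicate block, and 255 to 472 and 183 to 349 with 1 library left out. For pathway genes the counts of 7 and 5 became 15 and 13 with all genes with a count, 1 and 2 with at least 10 counts in every library, 11 and 10 at an adjusted p below 0.05 with no fold limit, 6 and 4 with the block, and 3 to 9 and 2 to 8 with 1 library left out. They were 10 and 9 in the likelihood ratio test, 8 and 9 in DESeq2, and 7 and 3 without scaling factors, a setting that shifted the median log2 difference of all genes by 0.12. For sex the 2 calls became 42 with all genes with a count, 5 in the proliferative libraries alone and 23 to 86 with 1 mouse left out, where the lone mouse of a sex is assumed to vary like the other sex; the members called stayed at 0. The interaction gave 0 calls with and without the replicate block and 16 with all genes with a count. The cause of these changes was not tested, other than that filters change the genes tested. Depth limits *Slc20a1*, *Slc20a2* and the resting values of *Panx3* and *Slc8a3*, which rest on 7 to 64 counts in the resting zone.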

Other observations

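The marker genes with the highest means showed the makeup of the zones around the members. Of the 13 chondrocyte markers tested, 7 were called higher in the proliferative and 0 in the resting zone, or 10 and 0 when mice were blocked and 11 and 0 in the likelihood ratio test. *Hapln1*, the link protein gene, had 13705 ± 4199 CPM there and 1549 ± 1207 CPM in the resting zone (SD, 4 mice; log2 difference -3.14, adjusted p = 0.000485), *Col11a1* had 3932 ± 1246 and 656 ± 310 CPM, and *Col2a1* 15310 ± 4544 and 5942 ± 1817 CPM. *Mgp*, the matrix Gla protein gene of the mineralization list, ran the other way at 399 CPM in the proliferative and 1103 CPM in the resting zone and was not called (log2 difference 1.47, adjusted p = 0.0166); it was picked after its values were seen. The bone collagen gene *Col1a1* had 15162 ± 8474 CPM in the resting and 798 ± 967 CPM in the proliferative zone (log2 difference 4.25, adjusted p = 0.00149), and the osteoclast phosphatase gene *Acp5* 589.6 to 2233 CPM in the resting and 0 to 136 CPM in the proliferative libraries. Without the proliferative library of mouse 1 the log2 differences of *Col1a1* and *Acp5* were 5.50 and 6.06, and without the resting library of mouse 6 that of *Hapln1* was -3.84. Erythroid markers summed to between 1811 and 12026 CPM in the resting and to at most 1716 CPM in the proliferative libraries, and endothelial markers to between 245 and 404 against 80.1 to 112 CPM. The endothelial genes *Emcn* and *Cdh5* failed the filter and had 56 against 3 and 57 against 2 counts, while *Egfl7* was not called (log2 difference 0.35, adjusted p = 0.416). Hemoglobin gene *Hbb-bs* had 161 to 1710 counts in the resting libraries and 419, 116, 0 and 0 in the proliferative libraries of mice 1, 2, 6 and 13, and was not called (adjusted p = 0.0381). When mice were blocked it was called (adjusted p = 0.00183). It was also called without the proliferative library of mouse 1, where the log2 difference moved from 3.72 to 5.47 (adjusted p = 0.00547).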
